A study of Mus musculus with 2 samples.

Results

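The genes of de novo lipogenesis, the pathway that turns carbohydrate into fatty acids, were followed in spatial transcriptomics (ST) of mouse liver. The 10 genes Srebf1, Mlxipl, Thrsp, Acly, Me1, Acaca, Fasn, Elovl6, Scd1 and Pnpla3 were picked out by symbol among the 32285 gene identifiers of the count tables, and all 10 were listed. ST here means 10x Visium: the RNA of a frozen section is caught on an array of barcoded spots, each wide enough for several cells, and a unique molecular identifier (UMI) keeps copies of the same molecule from being counted again. There was 1 liver section of 10 µm from 1 mouse of the NCD group, the controls, and 1 from 1 mouse of the HFD group, which was fed a diet with 60% fat (D12492). Both were male C57BL/6J mice bought at 5 weeks of age and acclimated for 1 week. Both groups then had 14 weeks on diet and 8 weeks of daily distilled water by mouth. The feeding state at collection was not given in the sources used here.

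In de novo lipogenesis, Acly makes cytosolic acetyl-CoA from citrate, Acaca carboxylates it to malonyl-CoA, and Fasn builds palmitate from both with NADPH, part of which comes from Me1. Elovl6 lengthens palmitate and Scd1 introduces a double bond. Srebf1 encodes SREBP1, which answers to insulin and sterols, and Mlxipl encodes ChREBP, which answers to sugars, and both switch on the genes of the enzymes. Thrsp encodes Spot 14, a small protein of lipogenic tissues that is induced by thyroid hormone and carbohydrate, and Pnpla3 encodes a lipid droplet protein that is a SREBP1 target. Hepatocytes are not alike along the lobule: those near the portal vein (periportal) and those near the central vein (pericentral) differ in oxygen, hormones and enzymes, and lipogenesis is one of the functions known to be zoned.

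The windows of 250 bases before and 50 bases after the transcription start were read for 9 of the 10 members, all but Scd1, from RefSeq on GRCm38.p6. Those of 4 genes are shown. Thrsp had the highest ratio of HFD to NCD among the members and Fasn the next highest. Acly was periportal in both sections, and Mlxipl is itself a regulator. Each window is written 5′ to 3′ on the strand of the gene. Capitals mark matches, on either strand, to 5 searched sets of letters: the E-box CACGTG, the sterol regulatory element TCACNCCAC, the CCAAT box, the GC box GGGCGG and the direct repeat that LXR binds, AGGTCA given again after 4 bases of any kind.
Thrsp, chr7:97417501-97417800, minus strand: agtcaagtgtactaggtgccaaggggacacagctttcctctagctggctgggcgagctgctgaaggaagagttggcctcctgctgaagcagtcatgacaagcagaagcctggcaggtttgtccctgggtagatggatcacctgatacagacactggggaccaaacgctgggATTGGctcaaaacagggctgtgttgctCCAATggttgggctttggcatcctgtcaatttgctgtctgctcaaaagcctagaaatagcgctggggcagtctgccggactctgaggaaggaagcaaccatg
Fasn, chr11:120824498-120824797, minus strand: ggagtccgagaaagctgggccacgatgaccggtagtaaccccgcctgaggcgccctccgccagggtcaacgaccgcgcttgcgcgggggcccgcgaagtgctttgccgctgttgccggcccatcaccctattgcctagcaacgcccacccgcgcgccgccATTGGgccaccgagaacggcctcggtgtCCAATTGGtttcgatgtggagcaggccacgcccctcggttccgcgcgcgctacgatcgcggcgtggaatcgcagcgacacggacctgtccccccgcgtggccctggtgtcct
Acly, chr11:100527951-100528250, minus strand: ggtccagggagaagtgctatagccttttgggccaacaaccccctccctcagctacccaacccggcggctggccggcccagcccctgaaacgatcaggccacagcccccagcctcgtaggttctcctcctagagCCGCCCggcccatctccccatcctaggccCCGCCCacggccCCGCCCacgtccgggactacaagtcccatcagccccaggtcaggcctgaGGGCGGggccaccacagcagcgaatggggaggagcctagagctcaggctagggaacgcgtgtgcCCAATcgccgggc
Mlxipl, chr5:135089640-135089939, plus strand: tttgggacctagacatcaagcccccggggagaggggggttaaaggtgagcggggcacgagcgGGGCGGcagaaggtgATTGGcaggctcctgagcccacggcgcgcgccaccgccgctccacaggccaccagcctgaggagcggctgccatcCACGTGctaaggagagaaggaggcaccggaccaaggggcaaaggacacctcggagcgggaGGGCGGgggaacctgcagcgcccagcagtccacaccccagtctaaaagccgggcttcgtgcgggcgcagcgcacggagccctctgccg
Some genes have several starts, so the 9 members have 13 windows. The CCAAT box was in 8 of these 13, from 7 genes, against 37.4% of all 32851 windows. The GC box was in 6 of the 13, from 5 genes, against 35.7% of all windows. CACGTG was found in the Mlxipl window shown and in no other member, and 7.15% of all windows held it. TCACNCCAC was found in the second Mlxipl window, chr5:135106641-135106940, and in 1.24% of all windows. The direct repeat was in no member and in 0.0152% of all windows. Fasn and Thrsp held CCAAT boxes and none of the other 4, while Acly held 4 GC boxes and 1 CCAAT box. These matches describe letters in short windows and say nothing about binding.

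The NCD section had 29037988 UMIs in 3692 spots over tissue (median 4187.5 per spot) and the HFD section 72118803 UMIs in 3594 spots (median 18549). In the NCD slide, spots called off tissue held 19.1% of the UMIs, and when each was paired with each spot over tissue, the latter was the deeper one in 51.6% of pairs, compared with 2.93% and 99.2% in the HFD slide. The call of tissue on the NCD slide, on which its levels and zones rest, thus hardly separated spots by depth, and whether it matches the tissue was not tested. The sections shared 3173 spot barcodes, which name positions on the array. The samples carry labels of hematopoietic stem cells and immune cells, but the sum of Alb, Mup3, Apoa1, Pck1 and Cyp2e1, transcripts of hepatocytes, was 82801 CPM (UMIs per 1000000 UMIs) in NCD and 75919 CPM in HFD, against 75.5 and 99.3 CPM for 4 macrophage transcripts. No test was possible with a single section for each diet: diet, animal, section and slide cannot be told apart. The 95% intervals given in parentheses cover counting error only. Fewer cells of a type and less RNA per cell cannot be told apart either.

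Between the sections, the members split into a group that was higher in HFD and a pair, Me1 and Scd1, that differed little, with Acly in between. Of 9 members with at least 200 UMIs over both sections, 6 were at least 1.5-fold higher in HFD and 0 at least 1.5-fold lower, against 23.6% and 4.58% of the 10665 genes with that minimum. The median log2 ratio of HFD to NCD was 0.75 over the 9 members and 0.23 over all genes, so a gene with the median ratio was itself above 0. When the sections were scaled to the median ratio of genes with at least 1000 UMIs, which lowers every log2 ratio by 0.19, 4 members stayed past 1.5-fold: Thrsp, Fasn, Acaca and Elovl6.

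**Figure D1:**
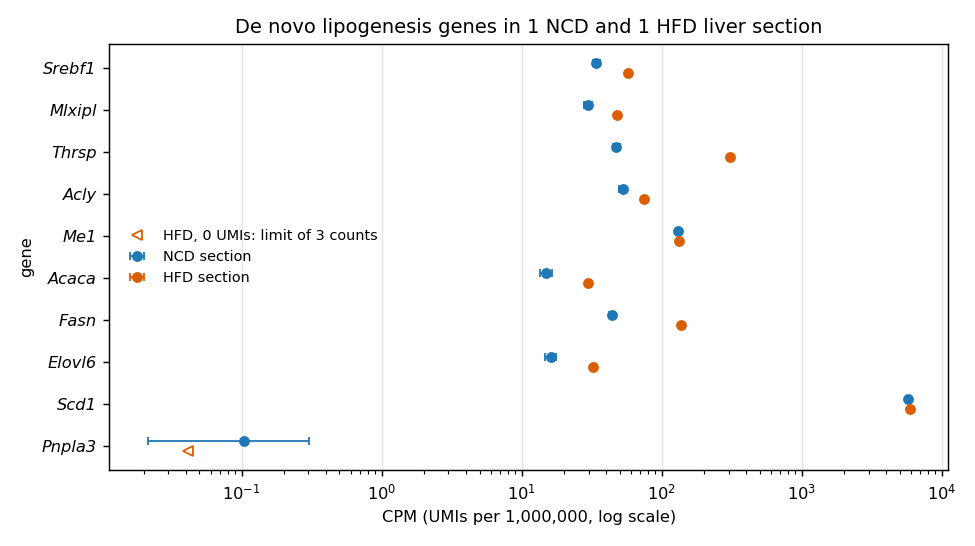
Level of each of the 10 genes in the NCD section (blue) and the HFD section (orange), in CPM of the section on a log axis, with 95% counting intervals as bars and an open triangle at the limit set by 3 counts where the count was 0. Thrsp and Fasn show the widest gaps, Scd1 and Me1 nearly coincide, and Pnpla3 lies at the floor.

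Among the regulators, with gene positions on GRCm38, Thrsp (chr7:97412938-97417730, minus strand) stood at 47.4 CPM (44.9 to 49.96) in NCD and 308.1 CPM (304.1 to 312.2) in HFD. The ratio was 6.50-fold, or 2.70 on the log2 scale (2.62 to 2.78). Srebf1 (chr11:60199089-60222581, minus strand) had 34.2 CPM (32.1 to 36.4) in NCD and 57.5 CPM (55.8 to 59.3) in HFD, which is 0.75 (0.65 to 0.85) on the log2 scale. For Mlxipl (chr5:135089890-135138382, plus strand) the levels were 30.0 CPM (28.0 to 32.0) and 48.2 CPM (46.6 to 49.8) and the log2 ratio 0.69 (0.58 to 0.80). The ratio of Thrsp was far above that of the transcription factors Srebf1 and Mlxipl, whose ratios were close to each other.

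The enzymes of the carbon chain itself followed. Fasn (chr11:120805846-120824547, minus strand) had 44.3 CPM (41.9 to 46.7) in NCD and 137.0 CPM (134.3 to 139.8) in HFD, 3.10-fold or 1.63 on the log2 scale (1.55 to 1.72). Acaca (chr11:84129672-84401651, plus strand) had 14.9 CPM (13.5 to 16.4) in NCD and 29.8 CPM (28.6 to 31.1) in HFD, with 1.00 (0.85 to 1.15) as its log2 ratio. The elongase Elovl6 (chr3:129532355-129638495, plus strand) had 16.1 CPM (14.7 to 17.6) and 32.5 CPM (31.2 to 33.9), or 2.02-fold (log2 1.01, 0.87 to 1.16). The carboxylase and the elongase thus had nearly the same ratio.

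The genes of substrate supply differed less. Acly (chr11:100476353-100528000, minus strand) stood at 52.5 CPM (49.9 to 55.2) in NCD and 74.2 CPM (72.2 to 76.2) in HFD, 1.41-fold (log2 0.50, 0.42 to 0.58) and below the 1.5-fold limit. Me1 (chr9:86581371-86695953, minus strand) stood at 130.8 CPM (126.6 to 135.0) and 132.9 CPM (130.3 to 135.6), and the interval of its log2 ratio of 0.02 ran from -0.03 to 0.08. Across the alternatives its log2 ratio lay between -0.17 and 0.12.

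The desaturase Scd1 (chr19:44394455-44407879, minus strand) was nearly level between the sections as a whole, with 5719 CPM (5691 to 5746) in NCD and 5906 CPM (5888 to 5924) in HFD. Its log2 ratio of 0.05 (0.04 to 0.05) changed sign with the scaling, to -0.15 with the median of ratios, and lay between -0.15 and 0.10 over 9 alternatives. Scd1 also dominated any sum over the members, since the other 9 genes gave 6.08% of the members' UMIs in NCD and 12.2% in HFD. The 10 genes summed to 6089 CPM (6061 to 6118) in NCD and 6727 CPM (6708 to 6745) in HFD, with a log2 ratio of 0.14 (0.14 to 0.15) that became -0.051 with the median of ratios. Without Scd1 the sums were 370.2 CPM (363.2 to 377.3) and 820.4 CPM (813.8 to 827.0), which differ by 1.15 (1.12 to 1.18) on the log2 scale. Pnpla3 (chr15:84167837-84187236, plus strand) had 3 UMIs in NCD and 0 in HFD, where 3 counts correspond to 0.0416 CPM, and no ratio was formed.

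Drawing every spot down to 3000 UMIs, which leaves out 1585 spots of the NCD section and 56 of the HFD section, left 6 members past 1.5-fold. In the NCD slide, the spots off tissue had 36.1 CPM (31.7 to 40.9) of Thrsp and 46.3 CPM (41.3 to 51.7) of Fasn, against 47.4 and 44.3 CPM over tissue. In the HFD slide they had 241.6 CPM (221.4 to 263.2) of Thrsp and 93.7 CPM (81.3 to 107.5) of Fasn, against 308.1 and 137.0 CPM.

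The other genes of the pathway were listed by role and comprised 35 genes, 34 of them with at least 200 UMIs. At least 1.5-fold higher in HFD were 10 and at least 1.5-fold lower 1, beside the 23.6% and 4.58% of all genes, and their median log2 ratio was 0.28. Pyruvate kinase (Pklr), a classical ChREBP target, had a log2 ratio of 1.13 (0.99 to 1.26) and the glucose transporter Slc2a2 one of 0.75 (0.70 to 0.79). In the pentose phosphate pathway, which supplies NADPH, Pgd had 0.94 (0.79 to 1.08) and Tkt 0.77 (0.68 to 0.86). Mid1ip1, the paralogue of Thrsp and a partner of acetyl-CoA carboxylase, had 0.92 (0.76 to 1.09). Of the elongases and desaturases, Elovl1 had 0.95 (0.84 to 1.07), Elovl5 0.80 (0.76 to 0.83) and Fads1 0.60 (0.55 to 0.65). The one gene below the limit was Elovl3, an elongase of saturated long chains, with 194.3 CPM in NCD and 38.7 CPM in HFD and a log2 ratio of -2.33 (-2.39 to -2.26). Insig1, which holds SREBP in the endoplasmic reticulum and is itself a SREBP target, was on the low side without reaching 1.5-fold, at -0.52 (-0.61 to -0.44). Srebf2, the SREBP of cholesterol synthesis, had 27.6 CPM (25.7 to 29.6) and 28.0 CPM (26.8 to 29.2), so the difference seen for Srebf1 was not detectable for it.

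**Figure D2:**
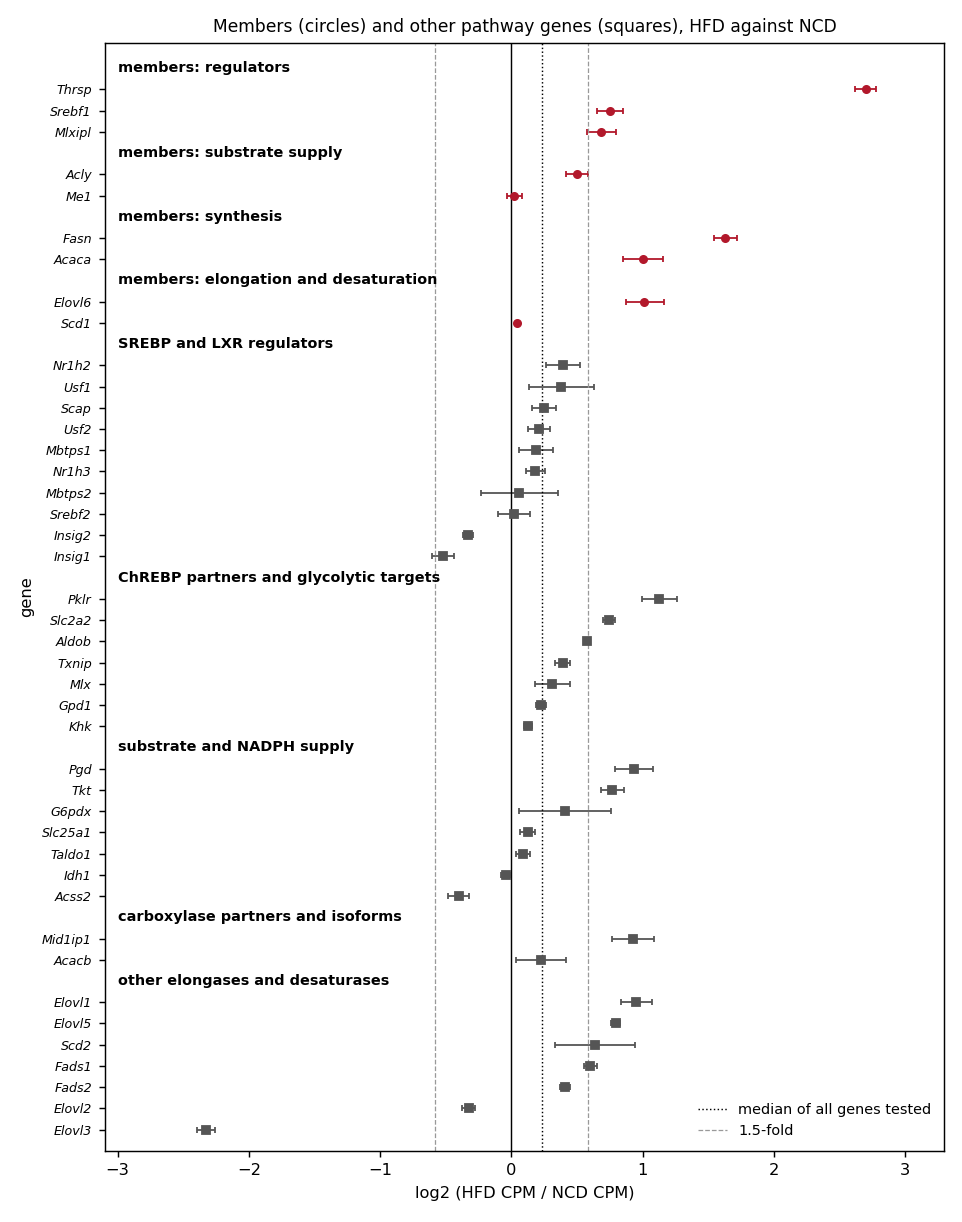
Log2 ratio of HFD to NCD for the 9 members with at least 200 UMIs (red circles) and 33 other pathway genes (grey squares), grouped by role, with 95% counting intervals, a dotted line at the median of all genes (0.23) and dashed lines at 1.5-fold. Thrsp and Fasn lie furthest to the right, Elovl3 furthest to the left, and most regulators of SREBP lie near the dotted line.

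Markers of other cell types also differed between the sections. The 6 adipocyte markers summed to 31.4 CPM in NCD and 73.4 CPM in HFD, and 2 of them, Fabp4 and Cfd, were at least 1.5-fold higher in HFD. The defining ones were at or near 0: Adipoq had 0 and 3 UMIs, Lep 0 and 0, Plin1 1 and 4, and Retn 3 and 4 in NCD and HFD. The summed markers of stellate cells were at 45.3 and 133.2 CPM (3 of 4 genes at least 1.5-fold higher). The macrophage markers were at 75.5 and 99.3 CPM, and 2 of the 3 with at least 200 UMIs were at least 1.5-fold higher. These were Adgre1 and Cd68, while Clec4f had 54.0 and 49.2 CPM. The markers of bile duct epithelium were at 354.5 and 695.7 CPM (4 of 5) and those of endothelium at 55.3 and 84.3 CPM (3 of 5). Most of the bile duct sum was Krt8 (140.7 and 391.1 CPM) and Krt18 (128.1 and 204.7 CPM), while Epcam had 2.38 and 4.94 CPM. Of all 10665 genes, 23.6% were at least 1.5-fold higher in HFD. A second hepatocyte list of 6 genes summed to 56688 and 72067 CPM. The part of these cells in the members' ratios was not tested. All 6 lipid droplet genes were at least 1.5-fold higher in HFD, among them Cidec at 4.10 and 85.0 CPM and Plin2 at 388.4 and 697.0 CPM.

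To place the members along the lobule, spots over tissue with at least 1000 UMIs (2852 in NCD and 3590 in HFD) were ordered by the log2 ratio of 7 pericentral to 7 periportal transcripts, none of them a member, and cut into 3 equal zones, periportal, midlobular and pericentral. Pericentral genes held out of this order, such as Lect2 and Slc13a3, summed to a log2 ratio of the pericentral to the periportal zone of 2.47 in NCD and 2.05 in HFD, and held-out periportal genes to -2.29 and -2.21. The order is a range rather than a set of types, and 240 and 342 spots lay within 0.1 of a boundary. The zones differed in depth, in opposite ways: the median UMIs per spot were 4635 periportally and 7911 pericentrally in NCD, and 24556 and 16945 in HFD.

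Scd1 ran in opposite directions along the lobule in the 2 sections. In NCD it stood at 6213 CPM (6157 to 6270) in the periportal zone, 6453 CPM (6405 to 6502) in the midlobular zone and 4581 CPM (4540 to 4622) in the pericentral zone, and its log2 ratio of the pericentral to the periportal zone was -0.44 (-0.46 to -0.42). In HFD it stood at 4891 CPM (4866 to 4916), 6308 CPM (6273 to 6342) and 6956 CPM (6920 to 6991), and the same log2 ratio was 0.51 (0.50 to 0.52). Between zones cut in each section alone, HFD was lower periportally (log2 -0.35, -0.36 to -0.33) and higher pericentrally (0.60, 0.59 to 0.62). In the midlobular zone the sections were close (-0.03, -0.05 to -0.02). The near equality of the whole sections also rests on the UMIs of each zone. The periportal zone held 7518660 of 29037988 UMIs in NCD and 30241889 of 72118803 in HFD. The signs of both pericentral to periportal ratios of Scd1 were kept under all 11 alternatives, between -0.66 and -0.40 in NCD and between 0.42 and 0.56 in HFD. Scd1 was also lower in deeper spots of both sections, in NCD from 7185 CPM (6922 to 7455) in spots under 1000 UMIs to 5594 CPM (5562 to 5626) in spots of at least 10000. In HFD it went from 7337 CPM (6852 to 7848) in spots of 1000 to 3000 UMIs to 6703 CPM (6621 to 6786) in those of 3000 to 10000 and 5859 CPM (5841 to 5877) in those of at least 10000. Of the outer zones, the one with the lower Scd1 level had the higher median depth in each section. Among spots of at least 10000 UMIs, the members' sum, which is mostly Scd1, had zonal log2 ratios of -0.50 in NCD and 0.51 in HFD. That minimum was chosen after seeing the data and does not equalize depth between zones. The part of depth in the zonal ratios of Scd1 was not tested.

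**Figure D3:**
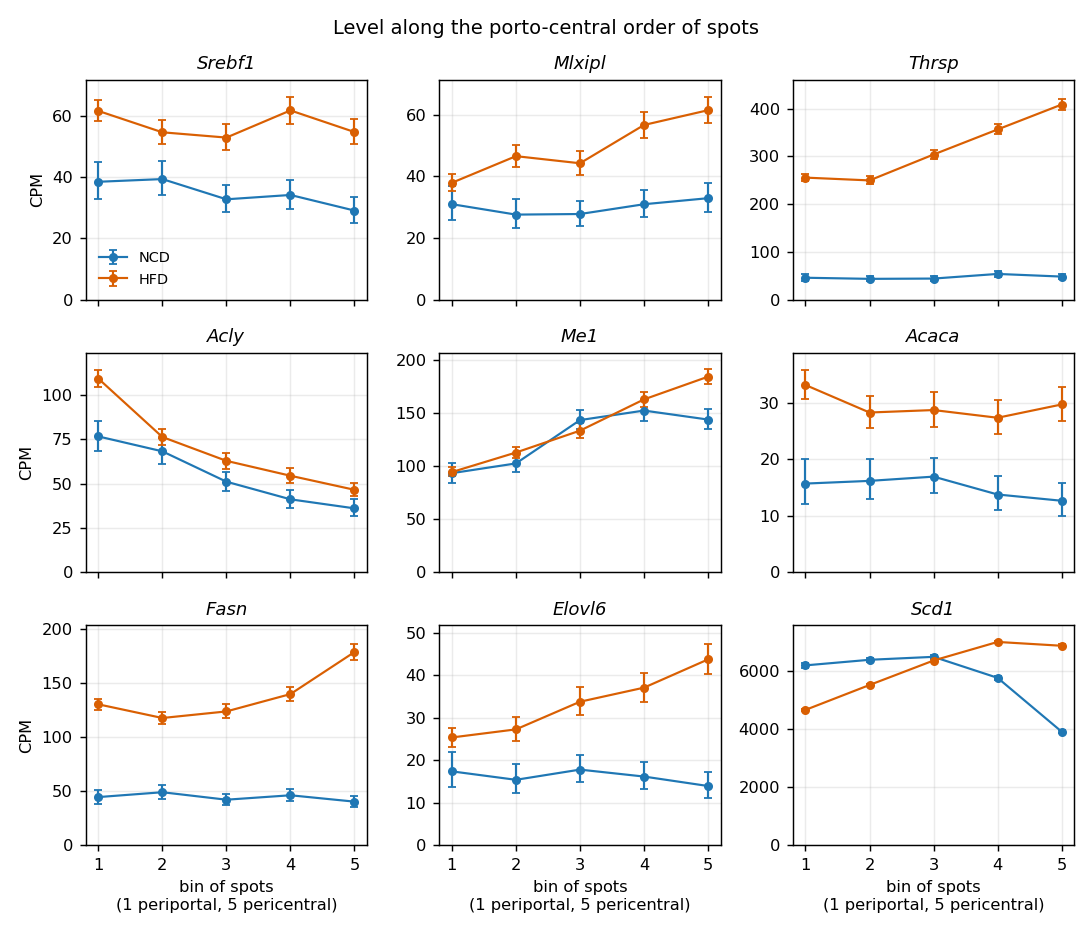
Level of 9 members in 5 equal bins of spots ordered from periportal (1) to pericentral (5), in CPM with axes from 0 and 95% counting intervals, for NCD (blue) and HFD (orange). The Scd1 curves cross near the middle bin, Acly descends in both sections, and Me1 is lowest at the periportal end of both. Toward the pericentral end of HFD, Thrsp, Fasn and Elovl6 rise to 408.9, 178.3 and 43.8 CPM in the last bin. Fasn first falls there, from 130.1 CPM in bin 1 to 117.4 CPM in bin 2.

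In 5 bins of spots, again ranked in each section alone, the Scd1 levels of the sections crossed near the middle bin. The NCD levels were 6183, 6375, 6476, 5754 and 3905 CPM from the periportal to the pericentral end, and the HFD levels 4653, 5508, 6350, 6988 and 6857 CPM. The lowest level thus lay at the pericentral end in NCD and at the periportal end in HFD. Few genes behaved in this way: 21 of 5592 genes with at least 200 UMIs in the outer zones of each section (0.376%) were periportal by at least 1.2-fold in NCD and pericentral by at least 1.2-fold in HFD, a limit chosen after the values of Scd1 were seen.

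Other members leaned pericentrally in HFD and differed less between the zones of NCD. Elovl6 had 16.1 CPM (13.4 to 19.2) periportally and 14.8 CPM (12.6 to 17.4) pericentrally in NCD, and 25.6 CPM (23.8 to 27.4) and 41.4 CPM (38.8 to 44.3) in HFD, log2 ratios of -0.12 (-0.47 to 0.24) and 0.70 (0.56 to 0.84). Fasn had 46.6 CPM (41.8 to 51.7) and 42.5 CPM (38.7 to 46.6) in NCD, and 125.9 CPM (121.9 to 129.9) and 165.9 CPM (160.5 to 171.5) in HFD, log2 ratios of -0.13 (-0.34 to 0.08) and 0.40 (0.33 to 0.47). For both genes the NCD interval held 0 and the HFD interval did not. The NCD ratio of Fasn depended on the processing: it was -0.25 (-0.46 to -0.05) without the abundant genes, -0.24 (-0.44 to -0.03) with the median of ratios and -0.39 with the mean of CPM per spot. Mlxipl was similar, at 0.18 (-0.07 to 0.43) in NCD and 0.58 (0.47 to 0.70) in HFD. Thrsp had 43.8 and 51.8 CPM in the outer zones of NCD and 252.6 and 391.7 CPM in those of HFD, and its log2 ratios were 0.24 (0.04 to 0.44) and 0.63 (0.59 to 0.68). Its NCD ratio came down to 0.02 when spots were drawn down to 3000 UMIs, and its NCD interval held 0 in 8 of the 10 alternatives that give one.

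Acly and Me1 lay at opposite ends in both sections. Acly was the periportal member, with 73.6 CPM (67.5 to 79.9) periportally and 37.6 CPM (34.0 to 41.5) pericentrally in NCD and 99.8 CPM (96.3 to 103.5) and 50.03 CPM (47.1 to 53.1) in HFD. Its log2 ratios of -0.97 (-1.16 to -0.78) and -0.997 (-1.10 to -0.90) were close, with a difference of -0.03 (-0.24 to 0.18). Me1 was the pericentral one, with 98.7 and 149.0 CPM in NCD and 99.1 and 176.3 CPM in HFD, log2 ratios of 0.59 (0.47 to 0.72) and 0.83 (0.76 to 0.90). The 2 genes that feed the pathway with acetyl-CoA and NADPH were thus highest in opposite outer zones of both sections. Srebf1 had log2 ratios of -0.31 (-0.54 to -0.08) in NCD and -0.03 (-0.14 to 0.07) in HFD, and Acaca -0.31 (-0.68 to 0.06) and -0.13 (-0.28 to 0.02). The intervals of Acaca were below 0 in 3 of 10 alternatives in each section, and that of Srebf1 in HFD in 2 of 10.

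**Figure D4:**
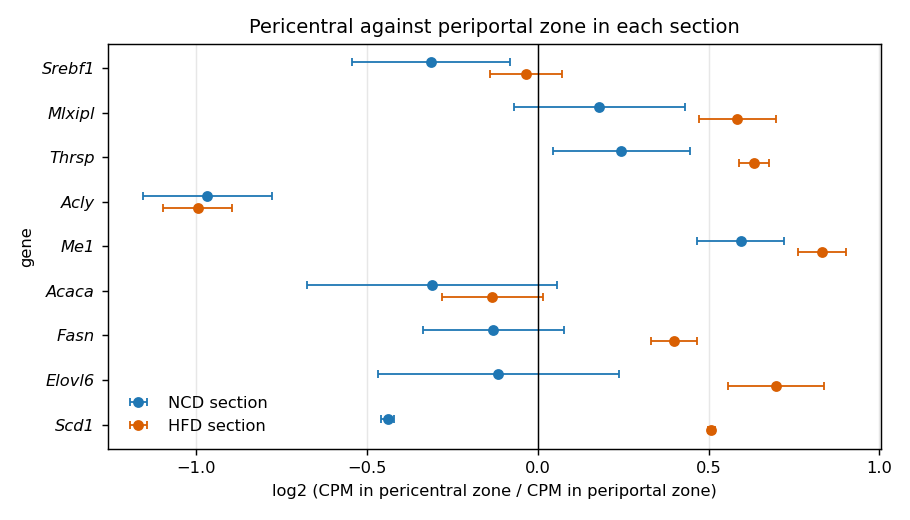
Log2 ratio of the pericentral to the periportal zone for 9 members in the NCD section (blue) and the HFD section (orange), with 95% counting intervals and a line at 0. Scd1 changes side, Acly stays on the periportal side and Me1 on the pericentral side, and the HFD point lies to the right of the NCD point for every member but Acly.

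The zonal log2 ratio was higher in HFD than in NCD for 8 of 9 members, with a median difference of 0.39, while 2550 of the 5592 genes were above 0 and their median was -0.02. For 2 members, Scd1 (0.95, 0.93 to 0.97) and Elovl6 (0.81, 0.45 to 1.18), the difference was at least 1.5-fold, against 1.68% of all genes, and 0 members differed by that much in the other direction, against 2.11%. Next came Fasn at 0.53 (0.32 to 0.74), Mlxipl at 0.41 (0.14 to 0.68) and Thrsp at 0.39 (0.19 to 0.59), followed by Srebf1 at 0.28 (0.03 to 0.53) and Me1 at 0.24 (0.09 to 0.38), and the interval of Acaca held 0 (0.18, -0.21 to 0.56). Within the NCD section 1 member, Me1, was at least 1.5-fold higher in the pericentral zone and 1, Acly, at least 1.5-fold lower, against 6.03% and 2.03% of genes. In the HFD section 3 members (Me1, Elovl6 and Thrsp) were pericentral and 1 (Acly) periportal by that measure, against 4.14% and 2.89%. Some of these genes lay close to the limit: Me1 in NCD passed it in 7 of 11 alternatives, Thrsp in HFD in 9 and Mlxipl in HFD in 2. The sum without Scd1 had a zonal log2 ratio of 0.04 (-0.03 to 0.11) in NCD and 0.41 (0.38 to 0.43) in HFD.

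Of the other pathway genes, 3 of 28 passed the same limits in the zonal difference toward pericentral and 0 toward periportal. Of all genes, 1.68% and 2.11% did. The 3 pathway genes were Mid1ip1, with log2 ratios of -0.98 in NCD and -0.10 in HFD, Elovl5 (-0.06 and 0.59) and Fads1 (-0.11 and 0.59). Zone by zone, with each section cut by its own ranks, the members at least 1.5-fold higher in HFD were counted. They numbered 5 of 9 in the periportal zone, 6 in the midlobular and 7 in the pericentral, against 23.4%, 23.0% and 20.9% of genes. In each of these zones 0 members were at least 1.5-fold lower, against 3.92%, 4.17% and 4.6% of genes. Fasn had log2 ratios of HFD to NCD of 1.43, 1.48 and 1.96 in these zones and Elovl6 of 0.67, 0.94 and 1.48.

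From spot to spot, Scd1 had the highest variance of residuals among the members. Beyond counting noise, that variance rises with a gene's UMIs per spot, of which Scd1 had by far the most. It therefore does not rank the genes by relative spread, nor compare sections of unlike depth. For Scd1 the variance, where 1 is expected from counting alone, was 5.46 in NCD and 10.1 in HFD, and 4.31 and 7.24 within zones. The other 8 lay between 0.98 and 1.26 in NCD and between 1.04 and 1.59 in HFD, Thrsp being the highest of them in both. Over 3538 HFD spots with at least 3000 UMIs, Scd1 had a median of 5876 CPM with a 10th percentile of 4025 and a 90th of 8587. Pairs of members were only weakly related across spots of one library, and sparse counts limit such values: the highest of 36 correlations in HFD were 0.27 for Me1 with Scd1 and 0.22 for Thrsp with Scd1, and the lowest was -0.22 for Acly with Scd1. Within zones these became 0.11, 0.04 and -0.06.

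Among the genes whose residuals across the 3590 HFD spots were most like those of the summed members were Fabp1 (Pearson r of 0.59), Mgst1 (0.58), Acaa1b (0.55), Cyp2e1 (0.55), Apoa2 (0.54), Cyp3a11 (0.49), Gm13775 (0.48), Car3 (0.46) and Cyp4a14 (0.45), out of 5424 genes with a median r of 0.01. Fabp1 carries fatty acids in the cytosol, Acaa1b belongs to peroxisomal fatty acid oxidation and Cyp4a14 hydroxylates fatty acids. In the 2852 NCD spots, r was -0.40 for Cyp2e1, -0.39 for Cyp3a11 and 0.11 for Fabp1. The sum is mostly Scd1, and Cyp2e1 also entered the zonal order. When Scd1 was left out, Cyp2e1 (0.40), Fabp1 (0.39) and Cyp3a11 (0.35) led in HFD, and the same genes had r of 0.01, 0.02 and 0.01 in NCD. Without Scd1 the members had 10750 UMIs in NCD and 59165 in HFD, and sparser counts pull r toward 0. The genes were also ranked by their r in HFD. The low NCD values therefore do not show that a relation is absent there. All these r values describe spots of single libraries that share depth.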

How the data were processed

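The data were 10x Visium ST counts of 1 NCD and 1 HFD mouse liver section. The authors aligned the reads and counted UMIs with Space Ranger 1.3.1 on mm10, per the submitters' processing notes, and deposited the UMI counts of every gene in each spot as they were, not normalized, for spots called over tissue and for all spots. Of the identifiers, 32158 of 32285 were in GENCODE M21 (release 21), whose positions on GRCm38, the same assembly as mm10, were used. Spot positions, images and scRNA-seq data were not used here.

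UMIs of a gene were summed over spots and divided by all UMIs of those spots. CPM have exact Poisson intervals and ratios exact conditional binomial intervals, both at 95%. Because each diet had 1 section, no test was made and 1.5-fold served as a description. Genes needed 200 UMIs over both groups compared. Residuals were taken against a spot's depth, and correlations are over spots. The zonal order used a pseudocount of 1. The intervals were tried before use on simulated counts that held counting error alone. That trial says nothing about spread beyond counting, which these data have. The members, the lists and the zonal markers were chosen with earlier results of these data known. The genes named are the 10 members, the other pathway genes with at least 1000 UMIs that differed at least 1.5-fold between sections, and the 10 genes most like the summed members; Insig1, Srebf2, the zonal pathway genes, the markers quoted by name and the 4 promoters shown were named after their values were seen. Of these, 2 genes are not reported here. Alternatives changed the genes in the total, the scaling, the weighting and minimum depth of spots, the spots used, the zonal markers and the parts of the order. The tools were scipy 1.17.1, numpy 2.4.6, matplotlib 3.10.9 and pandas 2.3.3 in Python 3.11.15, with seed 1.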

Additional observations from a re-analysis of the deposited data

Results flagged for a closer look

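Scd1 had zonal log2 ratios of the pericentral to the periportal zone with opposite signs in the sections, -0.44 in NCD and 0.51 in HFD, a difference of 0.95. Elovl2, an elongase of polyunsaturated fatty acids, likewise had -0.33 and 0.24, a difference of 0.57, and Khk, the ketohexokinase of fructose use, had -0.08 and 0.09, a difference of 0.17. The HFD ratio of Khk, 0.087 (0.049 to 0.125), was smaller than the 0.091 by which the median of ratios lowers the HFD zonal ratios. Its change of sign thus depends on the scaling. With 1 section per diet none of the 3 differences was tested across animals, and the intervals behind them cover counting error only.

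Spots called off tissue, which entered only the alternative over all spots of the capture area, also held the members' transcripts. Their sum was 7185 CPM (7121 to 7248) off tissue in the NCD slide and 5431 CPM (5334 to 5530) in the HFD slide, compared with 6089 and 6727 CPM over tissue. Without Scd1 the off-tissue sums were 368.4 and 603.1 CPM.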

How the results depend on the processing

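No paired analysis was possible because each diet had 1 section. The number of members at least 1.5-fold higher in HFD was 6 in 7 of 9 alternatives, 5 with the mean of CPM per spot and 4 with the median of ratios, and the number at least 1.5-fold lower was 0 in all 9. The members' summed log2 ratio of HFD to NCD of 0.14 became -0.051 with the median of ratios, 1.15 without Scd1, 0.15 without mitochondrial and the 20 most abundant genes, 0.16 with spots of at least 3000 UMIs, of at least 10000 UMIs and without the top 1% of spots, 0.087 over all spots of the capture area, 0.19 with spots drawn down and 0.073 with the mean of CPM per spot. Scd1 taken by itself changed sign with the median of ratios (-0.15), over the capture area (-0.013) and with the mean of CPM per spot (-0.023), and Me1, at 0.02, became -0.17 (-0.22 to -0.12) with the median of ratios and -0.0038 with spots drawn down. The summed zonal ratio in NCD, -0.41, became 0.039 without Scd1, and otherwise -0.53 without abundant genes, -0.46, -0.37 and -0.50 with minimums of 3000, 300 and 10000 UMIs, -0.62 with the outer 2 of 5 bins, -0.50 without Cyp2e1 and Cyp2f2 and -0.51 with the median of ratios. In HFD, 0.50 became 0.45 without abundant genes, 0.51 with at least 10000 UMIs, 0.54 with the outer 2 of 5 bins, 0.44 with scaled markers, 0.42 without Cyp2e1 and Cyp2f2, 0.47 with the mean per spot, 0.48 with spots drawn down, 0.41 without Scd1 and 0.40 with the median of ratios. By gene, Me1 in NCD was under 1.5-fold with the median of ratios (0.49), without abundant genes (0.47), with at least 10000 UMIs (0.51) and without Cyp2e1 and Cyp2f2 (0.52), and Thrsp in HFD with the median of ratios (0.54) and without abundant genes (0.58). Past 1.5-fold with the outer 2 of 5 bins came Mlxipl in HFD (0.70) and Scd1 in NCD (-0.66), and Mlxipl also without Pck1 and Cyp1a2 (0.62). The median of ratios shifts zonal log2 ratios by 0.11 in NCD and 0.09 in HFD. The cause of these movements was not tested. The minimum of 10000 UMIs, the zonal median of ratios and the likeness without Scd1 were chosen after seeing the data. Low counts limit Pnpla3 most, with 3 UMIs in NCD and 0 in HFD, and then Acaca and Elovl6 in NCD, with 433 and 468.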

Other observations

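Within each zone of each section, spots were also split at the median share of 6 lipid droplet genes (Plin2, Plin4, Cidea, Cidec, G0s2 and Mogat1). The values given first pool the 3 zones. In HFD, the group with more lipid droplet transcripts had 144.0 CPM of Me1 against 121.6 CPM in the other group, a log2 ratio of 0.24 (0.18 to 0.30). Elovl6 had 34.5 against 30.6 CPM (0.17, 0.05 to 0.29), Thrsp 323.2 against 292.6 CPM (0.14, 0.11 to 0.18) and Scd1 6042 against 5767 CPM (0.07, 0.06 to 0.08). Acly was lower in the group with more, at 70.2 against 78.3 CPM (-0.16, -0.23 to -0.08), and the intervals of Srebf1, Mlxipl, Acaca and Fasn held 0. By zone, Me1 and Scd1 were above 0 in all 3 zones of HFD, while Thrsp was at 0.0050 (-0.06 to 0.07) periportally, 0.21 (0.14 to 0.29) in the midlobular zone and 0.19 (0.12 to 0.25) pericentrally. In the pericentral zone Fasn was at 0.13 (0.03 to 0.22), Elovl6 at 0.28 (0.09 to 0.47) and Acly at 0.06 (-0.12 to 0.23). In NCD the pooled interval held 0 for each of the 9 members, with -0.0050 (-0.02 to 0.01) for Scd1, and by zone it did not for Thrsp periportally (-0.37, -0.69 to -0.05) and Me1 pericentrally (0.16, 0.02 to 0.31). The lipid droplet genes together had a log2 ratio of the pericentral to the periportal zone of 0.72 (0.69 to 0.74) in HFD. In NCD it was 0.02 (-0.04 to 0.07). A split inside a zone can thus still sort HFD spots by position, and the part of position was not tested. The groups also differed in depth. In HFD the median spot had 19082 UMIs in the group with more and 18042 in the other, and in NCD 7205 and 6185.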
